A study of Mus musculus with 13 samples.

Results

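Adipokines are signalling proteins released by fat tissue, and 6 genes of this class were followed across inguinal white adipose tissue of mice, a fat depot under the skin of the groin. The genes were Lep, Adipoq, Retn, Cfd, Nampt and Apln, chosen by symbol and without regard to their values from a table of 54532 genes. Each symbol had 1 row. Of the 6 genes, 5 reached 1 FPKM (fragments scaled to transcript length and library size) in at least 3 libraries and were among the 14421 genes tested; Apln reached it in 2 libraries and was not.

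Total RNA was sequenced from 13 individual mice that had been fasted for 12 h, after random allotment to groups of like body weight. Chow was fed to the 3 mice of SC_ConD, whose sleep was undisturbed, and to the 5 mice of SF_ConD, whose sleep was fragmented. The 5 mice of SF_HPD combined sleep fragmentation with a high-protein diet that supplied 50% of calories from protein, 12% from fat and 38% from carbohydrate. No group had normal sleep on the high-protein diet, and the sources used here do not give strain, sex, age or the length of the sleep and diet periods. The title of the study names sleep fragmentation, the high-protein diet and adipose inflammation as its subjects.

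Leptin, the product of Lep, is secreted by adipocytes in step with their lipid stores, falls in fasting, and acts on hypothalamic neurons to curb feeding. Adiponectin (Adipoq), resistin (Retn) and adipsin (Cfd, complement factor D) are abundant adipocyte products in mice: adiponectin favours insulin sensitivity, resistin was named for opposing it, and adipsin is the serine protease that starts the amplification step of the alternative complement pathway. Nampt, the rate-limiting enzyme of NAD salvage, is made by most cells and is also found outside them as visfatin, and Apln encodes apelin, the peptide ligand of the receptor Aplnr.

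The genes lie apart in the genome, at these positions on build GRCm38. Lep (ENSMUSG00000059201) spans 29060220 to 29073877 on the plus strand of chromosome 6, Adipoq (ENSMUSG00000022878) spans 23146536 to 23158028 on the plus strand of chromosome 16, and Retn (ENSMUSG00000012705) spans 3655770 to 3660110 on the plus strand of chromosome 8. Cfd (ENSMUSG00000061780) spans 79890853 to 79892655 on the plus strand of chromosome 10. Nampt (ENSMUSG00000020572) spans 32819545 to 32853349 on the plus strand of chromosome 12 and holds the non-coding gene Gdap10 within its bounds on the same strand, so reads of the pair may be shared. Apln (ENSMUSG00000037010) spans 48025146 to 48034853 on the minus strand of chromosome X.

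The bases just upstream of the start site are shown for Lep and for the 3 genes whose levels moved together between libraries (Adipoq, Retn and Cfd). They are from RefSeq on GRCm38.p6, read 5′ to 3′ in the direction of the gene and ending 1 base before its start. Capitals mark matches, on either strand, to the C/EBP site TTGCGCAA, the box named by its letters CCAAT, the TATA box in the form TATAA and the GC box GGGCGG; the overlapping forward and reverse TATAA matches of Lep form 1 run of capitals. A further motif, the E-box CACGTG, had no match in these windows.
Lep, chr6:29059971-29060219: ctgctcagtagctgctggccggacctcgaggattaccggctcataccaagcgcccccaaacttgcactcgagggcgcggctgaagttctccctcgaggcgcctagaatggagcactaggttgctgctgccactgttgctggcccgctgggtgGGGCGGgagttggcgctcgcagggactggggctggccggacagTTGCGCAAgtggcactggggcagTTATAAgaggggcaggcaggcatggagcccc
Adipoq, chr16:23146286-23146535: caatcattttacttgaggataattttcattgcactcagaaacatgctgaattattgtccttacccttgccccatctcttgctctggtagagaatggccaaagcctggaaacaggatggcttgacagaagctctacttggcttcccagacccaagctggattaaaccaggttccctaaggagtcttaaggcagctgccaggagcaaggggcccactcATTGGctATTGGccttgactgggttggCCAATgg
Retn, chr8:3655520-3655769: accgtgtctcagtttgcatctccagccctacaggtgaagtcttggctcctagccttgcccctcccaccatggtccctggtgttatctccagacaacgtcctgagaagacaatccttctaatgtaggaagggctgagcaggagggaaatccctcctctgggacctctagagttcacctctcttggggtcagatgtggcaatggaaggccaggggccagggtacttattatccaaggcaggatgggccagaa
Cfd, chr10:79890603-79890852: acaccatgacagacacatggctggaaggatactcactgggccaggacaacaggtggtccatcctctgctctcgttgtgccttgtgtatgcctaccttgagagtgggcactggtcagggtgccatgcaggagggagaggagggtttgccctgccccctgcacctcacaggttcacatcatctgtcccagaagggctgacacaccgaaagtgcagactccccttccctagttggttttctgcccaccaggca
The Lep window held the C/EBP letters 54 bases before the start, a TATA box 30 bases before it and a GC box 97 bases before it. Among 32851 mouse promoter windows of 250 bases, 54 (0.164%) held TTGCGCAA, 22.8% held TATAA and 32.7% held GGGCGG. Adipoq had 3 CCAAT matches, 7, 27 and 34 bases before the start, and 33.8% of all windows held at least 1. The Retn and Cfd windows held none of the 5 motifs, of which CACGTG was in 6.02% of all windows. These are matches of letters, not measured binding, and their part in the levels of these genes was not tested. The Nampt window is not shown, since the RefSeq start lies inside the gene as the table lists it.

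The libraries held 14815592 to 18303302 reads on genes, recovered from the FPKM values. Adipocyte markers (20 genes, among them Plin1, which coats lipid droplets) had a mean log2(FPKM + 1) of 6.40 to 8.26 in 12 libraries and of 3.0 in SF_HPD 2, with none of the 20 at 0. Plin1 itself was at 1.47 FPKM in SF_HPD 2 and at 61.4 to 424 FPKM elsewhere. Fabp4 and Pparg were at 826 and 63.6 FPKM in SF_HPD 2, above SF_HPD 4 (781 and 34.9 FPKM). The rest of the 20 were lowest in SF_HPD 2. By the marker mean this library goes against its tissue label, and results on SF_HPD are given with and without it. Liver transcripts were high in SC_ConD 2 and 3 (Alb at 4223 and 1614 FPKM), and B cell and lymph node transcripts were high in SF_ConD 1, 4 and 5 and SF_HPD 4 and 5. Skeletal muscle transcripts were high in SF_HPD 4 and SC_ConD 3 (mean log2(FPKM + 1) of 9.38 and 6.39, against 0.396 to 2.64 elsewhere). The part of muscle transcripts in the differences below was not tested. Levels of long genes relative to short ones were raised in SC_ConD 1, SF_ConD 3, SF_HPD 1 and SF_HPD 4 (Spearman rho of level with length 0.484 to 0.563). In whole tissue, fewer cells of a type and less RNA per cell cannot be told apart.

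The adipokine genes covered a wide span of levels per length. Cfd was the highest of the 6 in 13 of 13 libraries and ranked between 1 and 9 among the genes tested in 12 of them. Adipoq ranked 16 to 81 and Retn 21 to 187 in those 12 libraries, and Adipoq exceeded Retn in 11 of 13. Lep and Nampt changed places, with Lep the higher in 5 libraries (SC_ConD 1 and 2, SF_HPD 1, 3 and 4) and Nampt in 8. Apln was the lowest in 12 libraries, the exception being SF_HPD 2, where Lep had no read. Together the 6 genes took 0.630% to 3.25% of the reads in 12 libraries and 0.0279% in SF_HPD 2.

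**Figure D1:**
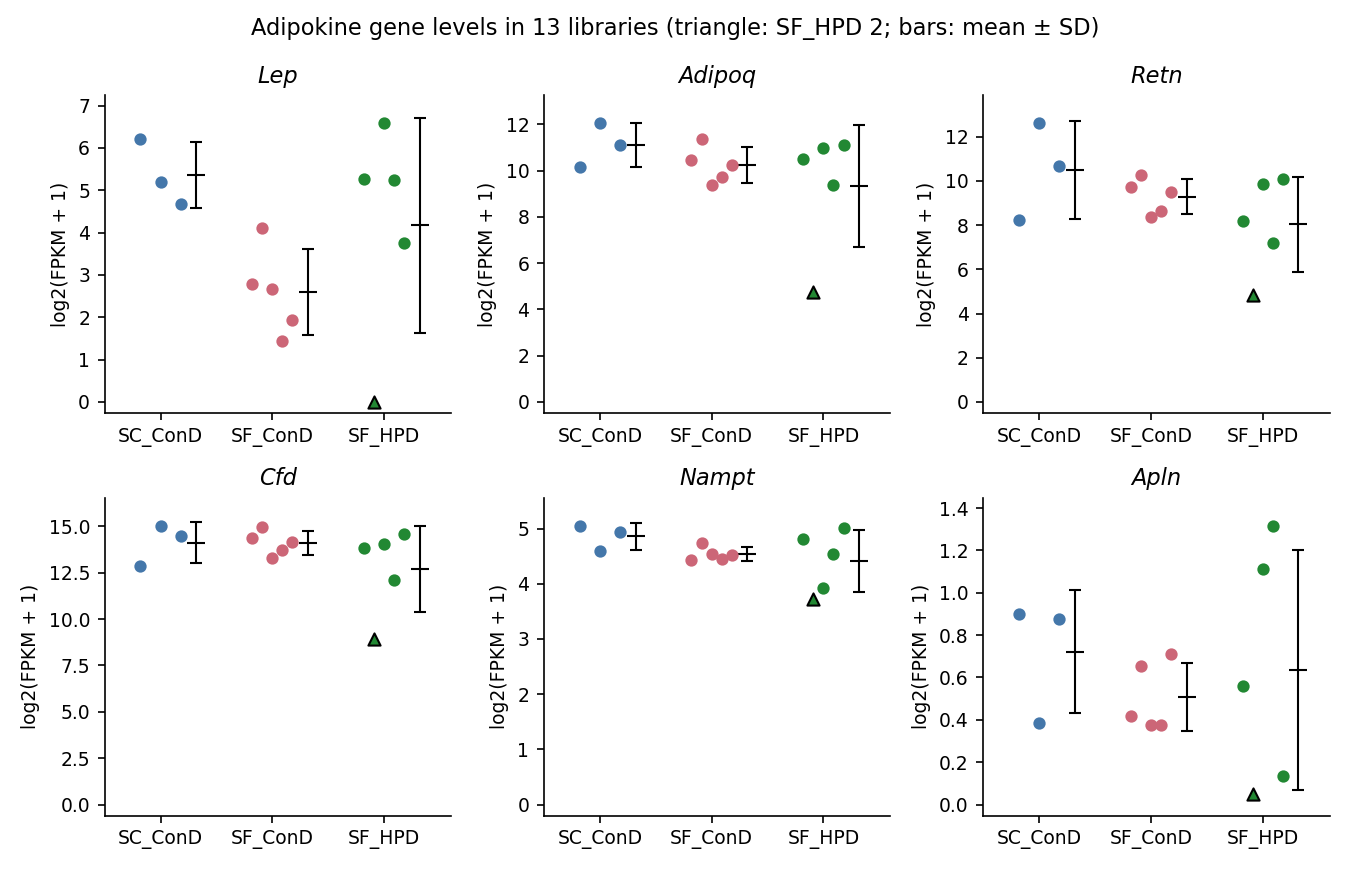
Level of each adipokine gene as log2(FPKM + 1) on the vertical axis in the SC_ConD, SF_ConD and SF_HPD libraries; each point is 1 mouse, the triangle is SF_HPD 2, and bars give mean ± SD. All 5 SF_ConD points of Lep lie below the 3 SC_ConD points, while the groups overlap for the other 5 genes.

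Sleep fragmentation on chow was compared with undisturbed sleep on chow first. Lep was lower in every SF_ConD mouse than in any SC_ConD mouse, while Adipoq, Retn, Cfd, Nampt and Apln overlapped between these groups. None of the 5 adipokine genes tested passed the adjusted threshold of 0.05 in limma, and 0 of 14421 genes (0%) did, as with limma-voom on recovered reads. At an unadjusted p below 0.05 Lep was the only one of the 5, and 828 genes (5.74%) passed, 3.15% lower and 2.59% higher in SF_ConD.

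Lep was at 72.7, 35.6 and 24.6 FPKM in SC_ConD 1 to 3. In SF_ConD 1 to 5 it was at 5.87, 16.4, 5.33, 1.71 and 2.83 FPKM. The groups did not overlap, with the highest SF_ConD mouse below the lowest SC_ConD mouse, a separation that 1.92% of all genes tested showed in this direction and 1.68% in the other. The means were 44.3 ± 25.2 FPKM (SD, n = 3) and 6.42 ± 5.82 FPKM (SD, n = 5). The difference was -2.77 on the log2(FPKM + 1) scale (SE 1.14, 95% interval -5.24 to -0.31), with an unadjusted p of 0.0304 and an adjusted p of 0.861 in limma. An exact two-sided permutation test of the 2 groups gave p = 0.0179, the smallest that 56 regroupings allow; it is 1 of 18 such tests on these genes and is not adjusted for their number.

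These Lep levels rested on 939 to 4110 reads in SC_ConD and on 109 to 819 reads in SF_ConD. The adipocyte marker mean ran from 6.99 to 8.12 in SC_ConD and from 6.40 to 7.99 in SF_ConD. With that mean as a covariate in the limma fit, the Lep difference was -2.38 (SE 0.60, unadjusted p 0.00177, adjusted p 0.545). The covariate fit also used SF_HPD 2, whose marker mean was 3.0. With single libraries left out, the unadjusted p in limma ran from 0.0209 to 0.103. Over all other settings it reached 0.289. Among the libraries that leaned toward long genes, SC_ConD 1 (72.7 FPKM) was above SF_ConD 3 (5.33 FPKM). Among the others, SC_ConD 2 and 3 (35.6 and 24.6 FPKM) were above SF_ConD 1, 2, 4 and 5 (1.71 to 16.4 FPKM). SF_ConD 1, 4 and 5 (5.87, 1.71 and 2.83 FPKM) were rich in lymphoid transcripts, and SC_ConD 2 and 3 in liver transcripts. The Lep difference stayed below 0 with either set left out, though the latter leaves SC_ConD 1 alone in its group. The part of lymphoid and liver transcripts in the Lep difference was not tested.

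Adipoq was at 1135, 4231 and 2225 FPKM in SC_ConD 1 to 3. In SF_ConD 1 to 5 it was at 1413, 2637, 666, 836 and 1207 FPKM. The SC_ConD values alone spanned almost the whole range, and 2 of the 5 SF_ConD mice were below all of them. The limma difference was -0.87 on the log2 scale (SE 1.25, interval -3.58 to 1.83, exact permutation p = 0.214).

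Retn spread more widely than the other members within SC_ConD. It was at 297, 6277 and 1626 FPKM in SC_ConD 1 to 3 and at 848, 1223, 327, 397 and 713 FPKM in SF_ConD 1 to 5. All SF_ConD values lay between the lowest and the middle SC_ConD values. The difference was -1.21 (SE 1.20, interval -3.80 to 1.38, exact permutation p = 0.321) in limma. It was -2.35 without SC_ConD 1 and -0.15 without SC_ConD 2, the libraries with the lowest and the highest Retn of their group.

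Cfd was at 7521, 33392 and 22639 FPKM in SC_ConD 1 to 3. In SF_ConD 1 to 5 it was at 21459, 32056, 9927, 13579 and 18265 FPKM, all inside the SC_ConD range. The difference was -0.02 (SE 1.30, interval -2.82 to 2.78, exact permutation p = 0.964) in limma, an interval that spans several-fold differences both ways. Its sign turned positive under 4 other settings and without SC_ConD 2 (0.43), SC_ConD 3 (0.15), SF_ConD 3 (0.19) or SF_ConD 4 (0.07).

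Nampt kept to a narrow range in these groups. It was at 32.2, 23.0 and 29.7 FPKM in SC_ConD 1 to 3 and at 20.5, 25.8, 22.2, 20.9 and 21.9 FPKM in SF_ConD 1 to 5. Of the SF_ConD mice, 4 of 5 were below every SC_ConD mouse, and SF_ConD 2 was above SC_ConD 2. The exact permutation test gave p = 0.0357, unadjusted, while limma, which pools the spread over all 3 groups, gave -0.32 (SE 0.33, unadjusted p 0.346, adjusted p 1.0).

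Apln was near the limit of detection, with 9 to 46 reads in the SC_ConD libraries and 16 to 27 in the SF_ConD libraries. Its mean was 0.671 ± 0.315 FPKM (SD, n = 3) against 0.429 ± 0.163 FPKM (SD, n = 5), with an exact permutation p of 0.179. Levels in SC_ConD 2 (0.308 FPKM) and in SF_ConD 3 and 4 (0.299 and 0.298 FPKM) lay within each other's exact Poisson limits at 95%, which cover counting error only. The limits of SC_ConD 1 (0.635 to 1.16 FPKM) and SC_ConD 3 (0.565 to 1.20 FPKM) lay above those of SF_ConD 1, 3 and 4, which reached 0.545 FPKM. Both overlapped the limits of SF_ConD 2 and 5.

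The high-protein diet was compared with chow among the mice with fragmented sleep. Lep was higher in 3 of the 5 SF_HPD mice than in any SF_ConD mouse, and SF_HPD 2, the library with few adipocyte transcripts, had no Lep read. Of the 5 adipokine genes tested, 0 passed the adjusted threshold in limma; 0 of 14421 genes did (0%), and limma-voom also made 0 calls. At an unadjusted p below 0.05 there were 0 of the 5 and 273 genes in all (1.89%).

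Lep was at 37.4, 0, 95, 37.1 and 12.4 FPKM in SF_HPD 1 to 5. The 0 in SF_HPD 2 allows up to 0.103 FPKM, the worth of 3 reads in that library, counting error only. SF_HPD 1, 3 and 4 lay above all SF_ConD mice and SF_HPD 5 fell between SF_ConD 1 and 2. The group mean was 36.4 ± 36.5 FPKM (SD, n = 5), with a difference of 1.58 (SE 0.99, interval -0.55 to 3.72, adjusted p 1.0) in limma and an exact permutation p of 0.238. Without SF_HPD 2, the limma difference was 2.63 (SE 0.62, unadjusted p 0.00107, adjusted p 0.991) and the exact permutation test gave p = 0.0238 over 126 regroupings, with SF_HPD 5 still inside the SF_ConD range. Lep was then the only one of the 5 with an unadjusted p below 0.05 in limma, a level that 1.56% of all genes tested passed with higher and 1.34% with lower values in SF_HPD.

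SF_HPD 2 was also the lowest library for Adipoq, Retn, Cfd, Nampt and Apln. Adipoq was at 1437, 26.1, 1989, 673 and 2175 FPKM in SF_HPD 1 to 5. The difference from SF_ConD was -0.89 (SE 1.08, exact permutation p = 0.683) with SF_HPD 2 and 0.25 (exact permutation p = 0.643) without it. The direction of the Adipoq difference therefore rested on that library.

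Retn was at 293, 27.8, 916, 146 and 1076 FPKM in SF_HPD 1 to 5, of which 3 were below every SF_ConD mouse. The difference was -1.26 (SE 1.04, exact permutation p = 0.270), and -0.47 (exact permutation p = 0.540) without SF_HPD 2. Cfd was at 14425, 477, 16919, 4351 and 24529 FPKM, with SF_HPD 2 and 4 below every SF_ConD mouse. Its difference was -1.42 (SE 1.12, exact permutation p = 0.246), and -0.47 (exact permutation p = 0.484) without SF_HPD 2. For both genes the log2 difference was more than 1.5 times smaller without that library.

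Nampt was at 27.2, 12.2, 14.2, 22.4 and 31.4 FPKM in SF_HPD 1 to 5, a wider spread than in SF_ConD and on both sides of it. The difference was -0.13 (SE 0.29, interval -0.75 to 0.49, exact permutation p = 0.619), and 0.04 without SF_HPD 2. Apln was at 0.476, 0.0367, 1.16, 1.49 and 0.0961 FPKM, and SF_HPD 3 and 4 were the only libraries of the 13 above 1 FPKM. Its lowest values rested on 1 read in SF_HPD 2 and 3 reads in SF_HPD 5, and the exact permutation test gave p = 0.627.

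**Figure D2:**
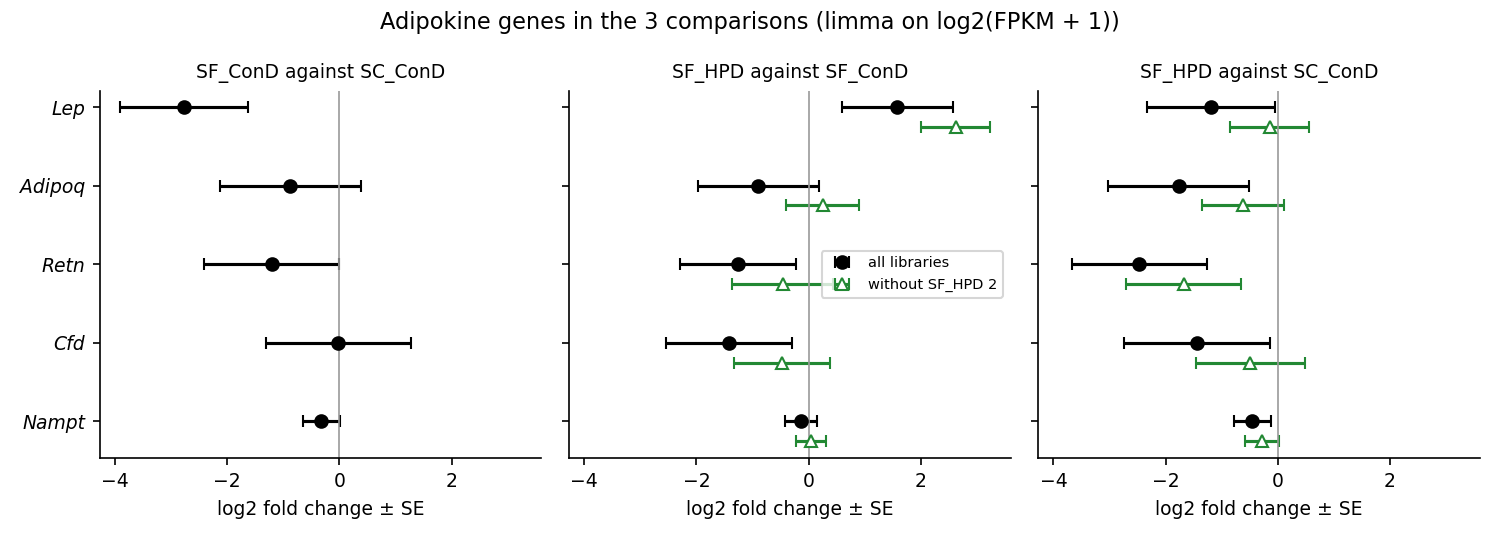
Difference in log2(FPKM + 1) ± SE from limma on the horizontal axis for the 5 adipokine genes tested, 1 panel per comparison; black circles use all 13 libraries and green triangles leave out SF_HPD 2. Lep lies at -2.77 in the sleep comparison and at 1.58 (2.63 without SF_HPD 2) in the diet comparison, and Retn at -2.47 in the third panel.

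Fragmented sleep with the high-protein diet was compared with undisturbed sleep on chow last. The mice differ in both sleep and diet here, and the group shares its control mice with the sleep comparison and its treated mice with the diet comparison. Of the 5 adipokine genes tested, 0 passed the adjusted threshold in limma, as did 0 of 14421 genes (0%), and limma-voom made 0 calls. At an unadjusted p below 0.05 there were 0 of the 5 and 531 genes in all (3.68%). All 6 genes overlapped between the groups. Of all genes tested, 0.853% were lower and 0.791% higher in SF_HPD without overlap.

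Lep in SF_HPD reached both above and below the SC_ConD range, with SF_HPD 3 highest of all 13 libraries. The difference was -1.19 (SE 1.14, interval -3.66 to 1.28, exact permutation p = 0.607) in limma and -0.15 (exact permutation p = 0.914) without SF_HPD 2. Retn had the largest difference, -2.47 (SE 1.20, unadjusted p 0.0599, adjusted p 1.0 in limma, exact permutation p = 0.161), and 3 of 5 SF_HPD mice were below every SC_ConD mouse. It was -1.67 without SF_HPD 2. Adipoq differed by -1.77, Cfd by -1.44 and Nampt by -0.45, and without SF_HPD 2 these were -0.62, -0.49 and -0.28.

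Because FPKM sums differed 5.03-fold between libraries, the adipokine genes were also set against Adipoq within each library, a measure that no scaling of the library can alter. This measure was chosen after the values were seen, and its 25 permutation tests are not adjusted for their number. Cfd was at 6.62, 7.89 and 10.2 times Adipoq in SC_ConD 1 to 3. In SF_ConD 1 to 5 it was at 15.2, 12.2, 14.9, 16.2 and 15.1 times Adipoq. Every SF_ConD mouse was thus above every SC_ConD mouse, although Cfd and Adipoq each overlapped between the groups. The means were 14.7 ± 1.53 (SD, n = 5) and 8.23 ± 1.80 (SD, n = 3), with an exact permutation p of 0.0179, the smallest that 56 regroupings allow. Of 14420 genes set against Adipoq in this way, 1.69% also separated the groups in this direction.

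In SF_HPD 1 to 5, Cfd was at 10.04, 18.3, 8.51, 6.47 and 11.3 times Adipoq. SF_HPD 2 was the highest of all 13 libraries in this measure, at its low levels of both genes, and the other 4 mice were below every SF_ConD mouse. The exact permutation p against SF_ConD was 0.103 with SF_HPD 2. Without it the mean was 9.07 ± 2.07 (SD, n = 4) and p = 0.0159 in the exact permutation test, a separation in this direction shared by 0.583% of genes set against Adipoq. Cfd has a shorter transcript than Adipoq in the table (922 and 1381 bases), so the lean toward long genes could touch the ratio. Among the libraries with that lean, SC_ConD 1 (6.62), SF_HPD 4 (6.47) and SF_HPD 1 (10.04) were below SF_ConD 3 (14.9). Among the rest, SC_ConD 2 and 3, SF_HPD 3 and SF_HPD 5 were below SF_ConD 1, 2, 4 and 5, while SF_HPD 2 (18.3) was above them. Of the 5 SF_ConD libraries 3 were rich in lymphoid transcripts, and these 3 were at 15.1 to 16.2 times Adipoq against 12.2 and 14.9 in the other 2. Without the lymphoid-rich libraries the exact permutation p between SF_ConD and SC_ConD was 0.10, the smallest that 2 against 3 mice allow.

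Lep was at 6.40%, 0.842% and 1.11% of Adipoq in SC_ConD 1 to 3. In SF_ConD 1 to 5 it was at 0.416%, 0.620%, 0.80%, 0.205% and 0.234%. The groups did not overlap, though SC_ConD 2 and SF_ConD 3 were close (exact permutation p = 0.0179, with 0.423% of genes separated in this direction). Without SC_ConD 1, the library with the highest Lep share of its group, the exact permutation p was 0.0952, and without the lymphoid-rich libraries it was 0.50. In neither subset did SF_ConD and SC_ConD overlap. The test compares mean percents, and in the second subset the 6.40% of SC_ConD 1 dominates them. In SF_HPD 1 to 5 it was at 2.61%, 0%, 4.78%, 5.52% and 0.571%, and SF_HPD 1, 3 and 4 were above every SF_ConD mouse. The exact permutation p against SF_ConD was 0.135, and 0.0238 without SF_HPD 2.

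Retn was at 46.4% to 60.0% of Adipoq in SF_ConD, a narrower range than in SC_ConD (26.2% to 148%). In SF_HPD it was at 20.4% to 49.5% without SF_HPD 2, with a mean of 34.4% ± 15.5 (SD, n = 4) against 52.4% ± 6.58 (SD, n = 5) in SF_ConD and an exact permutation p of 0.0476. SF_HPD 2 was at 107%, and with it the exact permutation p was 0.889.

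**Figure D3:**
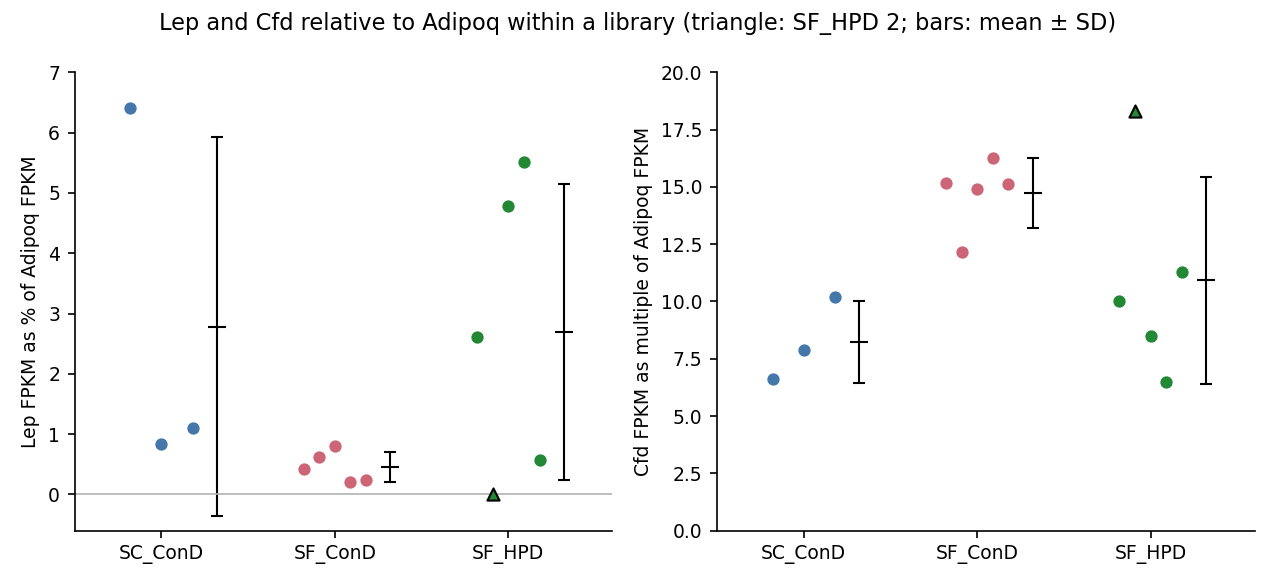
Lep as a percent of Adipoq (left) and Cfd as a multiple of Adipoq (right) within each library, on linear axes; each point is 1 mouse, the triangle is SF_HPD 2, and bars give mean ± SD. SF_ConD lies below SC_ConD for Lep and above it for Cfd with no overlap, and 4 of the 5 SF_HPD mice lie below SF_ConD for Cfd.

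Adipoq, Retn and Cfd moved together from mouse to mouse, and Lep did not follow them. Over the 13 libraries, Adipoq and Cfd had a Pearson r of 0.962 and a Spearman rho of 0.923 (permutation p = 6e-05 and 4e-05), and r was 0.824 without the libraries farthest from the Adipoq median, SF_HPD 2 and SC_ConD 2. Adipoq and Retn had r = 0.901 and rho = 0.879 (permutation p = 2e-05 and 0.00015), with r = 0.851 without those libraries. Retn and Cfd had r = 0.912 and rho = 0.934 (permutation p = 1e-05, the smallest that 100000 permutations give, and 2e-05), with r = 0.914 without them. These 3 are among 15 pairs computed, with p unadjusted, and the points share the scaling of their library and its content of adipocyte transcripts.

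Lep and Adipoq had r = 0.652 and rho = 0.423 (permutation p = 0.0109 and 0.154) over 13 libraries, but r = 0.233 without SF_HPD 2 and SF_ConD 4, so the relation rested on those libraries. Lep and Cfd had r = 0.439 and rho = 0.104 (permutation p = 0.131 and 0.739), and r = -0.159 without SF_HPD 2 alone. Lep had its highest correlation among the members with Apln (r = 0.680 and rho = 0.720, permutation p = 0.0108 and 0.00763), and r was 0.540 without the libraries farthest from the Lep median. Apln had 1 to 81 reads in these libraries.

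**Figure D4:**
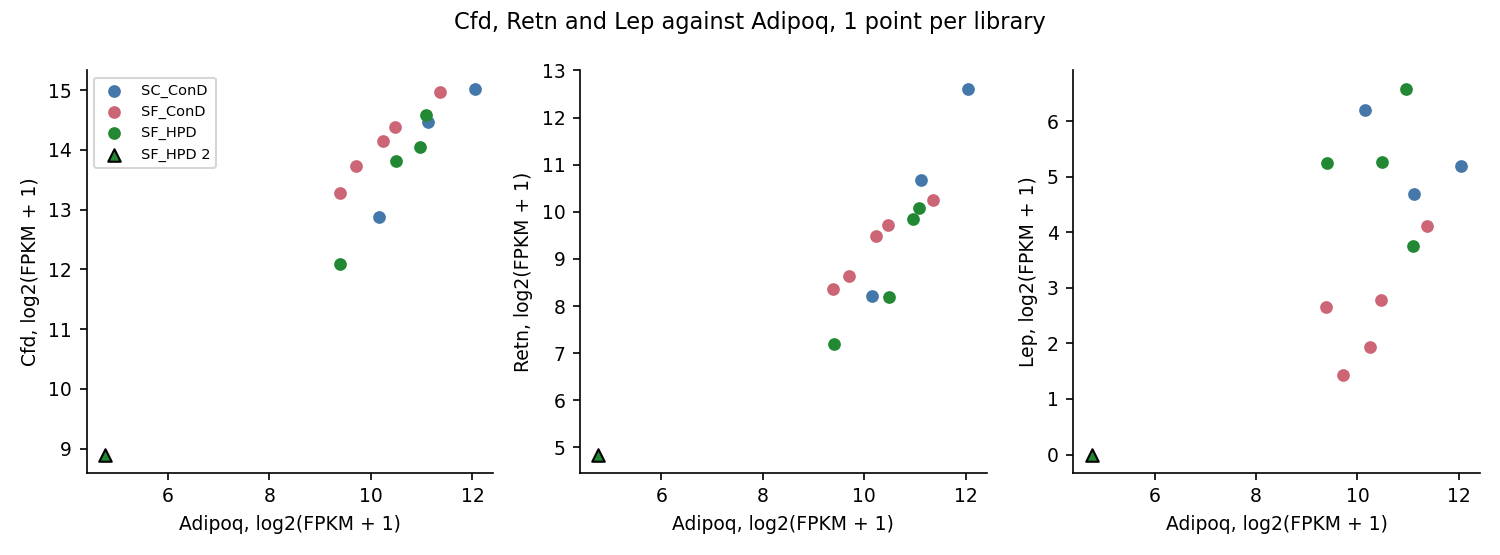
Cfd (left), Retn (middle) and Lep (right) against Adipoq, all as log2(FPKM + 1), with 1 point per library coloured by group and a triangle for SF_HPD 2. Cfd and Retn rise with Adipoq (r of 0.962 and 0.901), while for Lep the relation (r of 0.652) rests largely on SF_HPD 2.

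The genes most like each member were taken as the 3 with the highest Pearson r over the 13 libraries among 9584 genes that averaged 2 FPKM or more. For Lep these were Ccdc80 (r = 0.965), which encodes a secreted matrix protein, Apcdd1 (r = 0.946), an inhibitor of Wnt signalling at the cell surface, and Abcb1b (r = 0.921), a drug exporter. Ccdc80 and Apcdd1 were also among the top 3 without SF_HPD 2. Ccdc80 was at 96.0 ± 22.0 FPKM in SC_ConD (SD, n = 3), at 22.6 ± 7.67 FPKM in SF_ConD (SD, n = 5) and at 63.6 ± 44.0 FPKM in SF_HPD (SD, n = 5).

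For Adipoq the most alike were Rgcc (r = 0.989), Amy1 (r = 0.986), an amylase gene, and Mc2r (r = 0.977), the receptor of corticotropin. For Retn they were Mrap (r = 0.977), the accessory protein of that receptor, Mogat1 (r = 0.977) and Adig (r = 0.973), and for Cfd they were Apoe (r = 0.987), Cyp2e1 (r = 0.980) and Angptl8 (r = 0.9748). None of these 9 stayed among the top 3 without SF_HPD 2. For Nampt they were Grsf1 (r = 0.894), Dld (r = 0.885) and Tmem140 (r = 0.858), of which the first 2 stayed.

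Genes that act with the adipokines were described by lists, none of whose members passed the adjusted threshold in limma in any comparison. Of 7 receptor genes, among them those of leptin, adiponectin and apelin, 0 had an unadjusted p below 0.05 in any of the 3 comparisons. Their median difference was -0.32 in the sleep comparison and 0.05 in the diet comparison, against -0.03 and 0.01 over all genes tested. Of 11 genes of leptin signalling inside the cell, 0 had an unadjusted p below 0.05 in the sleep or diet comparison. Socs3, the feedback inhibitor of the leptin receptor, had a difference of -1.05 (SE 0.43, unadjusted p 0.0296, adjusted p 1.0 in limma) between SF_HPD and SC_ConD, where no other gene of the list had an unadjusted p below 0.05. In that comparison 2.67% of all genes tested passed this level with lower and 1.01% with higher values in SF_HPD. Without SF_HPD 2 these shares were 3% and 0.95%, and Socs3 no longer passed (-0.76, unadjusted p 0.0568).

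Of the complement genes around Cfd, 9 were tested and 3 had an unadjusted p below 0.05 in the sleep comparison, all with lower values in SF_ConD, as had 3.15% of all genes tested. Among them were the regulators Cfi (-2.67, SE 0.78) and Cd59a (-1.15, SE 0.50), with an adjusted p in limma of 0.716 and 0.861. Cfi was at 42.3 and 15.02 FPKM in the liver-rich SC_ConD 2 and 3 and at 0.535 FPKM in SC_ConD 1. It is also made by liver. Cd59a was at 146 and 96.1 FPKM in SC_ConD 2 and 3 and at 47.0 FPKM in SC_ConD 1, while SF_ConD reached 61.5 FPKM. The part of liver transcripts in the Cfi and Cd59a differences was not tested. In the diet comparison 1 of the 9 had an unadjusted p below 0.05, with lower values in SF_HPD as for 1.06% of all genes tested. It was C3, the central protein of complement, at 371 ± 89.4 FPKM in SF_ConD (SD, n = 5) against 158 ± 101 FPKM in SF_HPD (SD, n = 5), a difference of -1.69 (SE 0.71, unadjusted p 0.0332, adjusted p 1.0 in limma). Without SF_HPD 2, where C3 was at 16.1 FPKM, its mean in SF_HPD was 193 ± 73.0 FPKM (SD, n = 4) and the difference -1.01 (SE 0.50, unadjusted p 0.0653), and C5ar1, a receptor of the C5a fragment, alone of the 9 had an unadjusted p below 0.05 (0.99, SE 0.41). Between SF_HPD and SC_ConD 3 of the 9 had an unadjusted p below 0.05, all lower in SF_HPD (2.67% of all genes tested), among them Cfi (-3.07) and C3 (-2.10). Without SF_HPD 2 the count was again 3, all lower (3% of all genes tested), with Cfi at -3.20 and C3 at -1.42. C3 was at 867 and 531 FPKM in the liver-rich SC_ConD 2 and 3. In SC_ConD 1 it was at 242 FPKM, below SF_HPD 4 (259 FPKM). The part of liver transcripts in the C3 difference was not tested.

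Of the 12 NAD genes tested, Nampt included, 1 had an unadjusted p below 0.05 in the sleep comparison, near the share of all genes tested (5.74%), and 0 in the others. It was Sirt3, the mitochondrial deacetylase that uses NAD, at -0.83 (SE 0.38, adjusted p 0.861 in limma). Of the 9 genes tested of the C1q and TNF related family, to which Adipoq belongs, C1qtnf3 alone had an unadjusted p below 0.05, in the sleep comparison (-0.81, SE 0.38, adjusted p 0.861 in limma), again against 5.74% of all genes. The 5 genes that assemble and release adiponectin, the 3 tested of the resistin family and the 2 tested of the apelin pathway had none in any comparison. Of 13 regulators of fat cell formation 1 did: Pparg, which drives Adipoq transcription, was at 129 ± 42.8 FPKM in SC_ConD (SD, n = 3) against 64.0 ± 17.6 FPKM in SF_HPD (SD, n = 5), a difference of -0.996 (SE 0.45, adjusted p 1.0 in limma) in the comparison where 3.68% of all genes passed this level, and of -1.01 without SF_HPD 2. Pparg was at 136 and 168 FPKM in the liver-rich SC_ConD 2 and 3 and at 83.2 FPKM in SC_ConD 1, against 34.9 to 81.8 FPKM in SF_HPD. The part of liver transcripts in the Pparg difference was not tested. The counts of these lists in both SF_HPD comparisons were as given without SF_HPD 2.

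A further list of 25 genes for other proteins released by or acting on fat had 21 members tested. In the sleep comparison 8 had lower and 1 had higher values in SF_ConD at an unadjusted p below 0.05, against 3.15% and 2.59% of all genes tested, and the list's median difference was -1.24 against -0.03. In the diet comparison 2 were higher and 1 lower (0.832% and 1.06% of all genes tested), and the median was 0.10. Without SF_HPD 2 the diet comparison had 4 higher and 0 lower (1.56% and 1.34% of all genes tested), namely Mest, Npr3, Sfrp5 and Fbn1 (1.03, SE 0.40), which encodes fibrillin and the hormone asprosin, and the median was 0.25. Lcn2, a lipocalin released by fat and liver, differed by -2.11 (SE 0.97) between SF_HPD and SF_ConD (-1.47 and unadjusted p 0.133 without SF_HPD 2), and by -3.97 (SE 1.12, adjusted p 0.484 in limma) between SF_HPD and SC_ConD. In that last comparison 5 of the 21 were lower and 0 higher at an unadjusted p below 0.05, among them Agt (-3.48), the angiotensin precursor. Without SF_HPD 2 the counts were again 5 and 0, with Lcn2 at -3.33 and Agt at -2.86. Lcn2 and Agt were at 398 and 189 FPKM in SC_ConD 2 and at 16.8 and 25.6 FPKM in SC_ConD 1, and the part of liver transcripts in these differences was not tested.

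Mest, Npr3 and Sfrp5 of this list had an unadjusted p below 0.05 in the sleep comparison, the diet comparison or both. Mest, a gene tied to the growth of fat cells, was at 3.16, 13.7 and 3.63 FPKM in SC_ConD 1 to 3, and at 0, 1.26, 0.344, 0.464 and 0.176 FPKM in SF_ConD 1 to 5. In SF_HPD 1 to 5 it was at 5.21, 0.381, 11.2, 3.66 and 0.793 FPKM, with the same 3 mice above SF_ConD as for Lep. The differences were -2.24 (SE 0.66, adjusted p 0.716) in the sleep comparison and 1.48 (SE 0.57, adjusted p 1.0) in the diet comparison, in limma, the latter 1.85 (SE 0.53, adjusted p 0.991) without SF_HPD 2.

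Npr3, the clearance receptor of natriuretic peptides, was at 7.21 to 25.5 FPKM in SC_ConD and at 0.802 to 3.97 FPKM in SF_ConD (-2.22, SE 0.77, adjusted p 0.787 in limma). It was at 13.3, 15.5 and 14.96 FPKM in SF_HPD 1, 3 and 4 and at 0.455 and 1.78 FPKM in SF_HPD 2 and 5. With SF_HPD 2 included, the unadjusted p of Npr3 between SF_HPD and SF_ConD was not below 0.05 in limma. Without SF_HPD 2 the difference from SF_ConD was 1.83 (SE 0.55, unadjusted p 0.00596, adjusted p 0.991 in limma). Sfrp5, a secreted inhibitor of Wnt signalling, was at 0.275 to 1.07 FPKM in SF_ConD and at 1.40 to 7.74 FPKM in SF_HPD, without overlap (1.58, SE 0.56, adjusted p 1.0 in limma, and 1.81 without SF_HPD 2; 0.229% of all genes tested were higher without overlap). In SC_ConD it was at 9.99, 1.93 and 0 FPKM, so its level there overlapped both groups and SF_HPD had the highest mean.

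**Figure D5:**
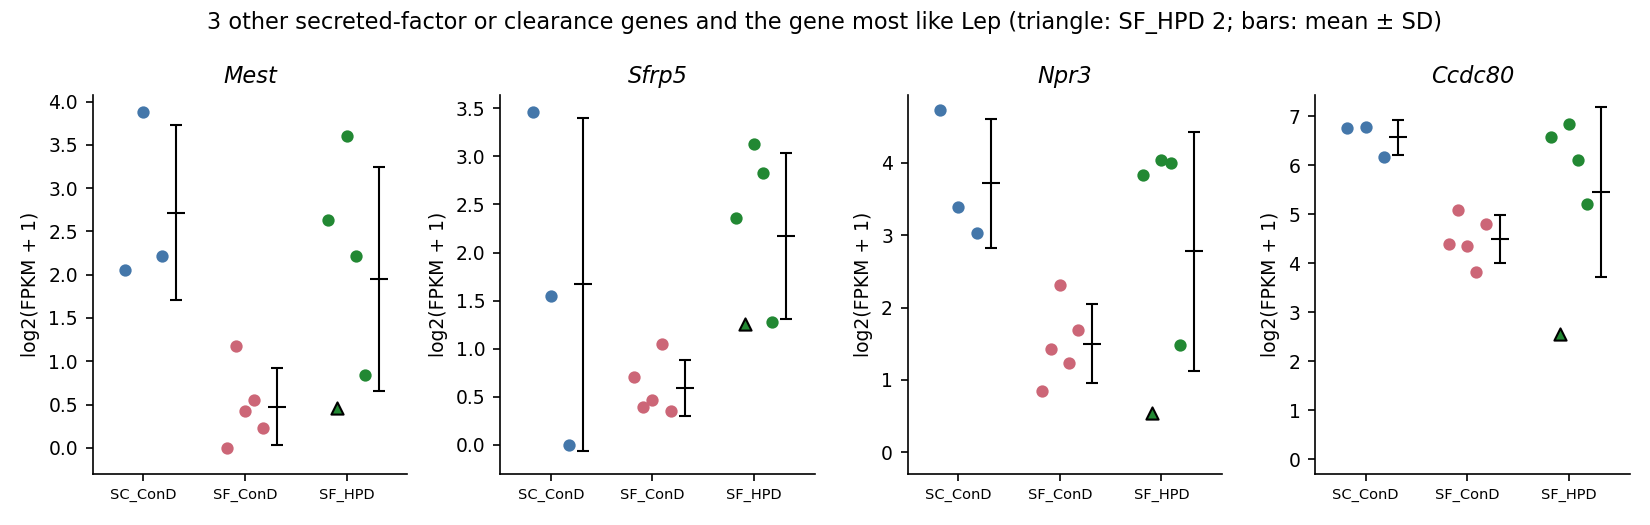
Levels of Mest, Sfrp5, Npr3 and Ccdc80 as log2(FPKM + 1) on the vertical axis in the 3 groups; each point is 1 mouse, the triangle is SF_HPD 2, and bars give mean ± SD. SF_ConD lies below SC_ConD without overlap for Mest, Npr3 and Ccdc80, and below SF_HPD without overlap for Sfrp5. Of all genes tested, 1.92% were lower in SF_ConD than in SC_ConD without overlap, and 0.229% higher in SF_HPD than in SF_ConD. Ccdc80 was picked by its correlation with Lep over these same libraries. Mest, Npr3 and Sfrp5 were picked by the smallest unadjusted p of their list in these comparisons. Their separation is therefore not independent of that choice.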

How the data were processed

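Expression of the adipokine genes was read from 1 table of gene FPKM values in 13 libraries, deposited by the authors with gene names, coordinates and lengths. The submitters' processing notes name CASAVA, HISAT2 2.0.5, featureCounts 1.5.0-p3 and mouse build mm8. GENCODE M21 held 54409 of the 54532 identifiers, 53499 of them with identical bounds, and positions are therefore on GRCm38. The sources used here do not give the strand setting, annotation version or FPKM divisor. Multiplying each deposited FPKM by gene length and dividing by the library's smallest step gave whole reads for 100% of values (tolerance 0.05). The divisor implied was 0.479 to 1.23 times the reads recovered, so levels between libraries carry that scaling.

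Values were tested as log2(FPKM + 1), which understates changes of low genes. A model of group means was fitted to the 13 libraries with limma 3.58.1 under R 4.3.3 (eBayes with trend and robust options, two-sided, Benjamini-Hochberg over the 14421 genes with at least 1 FPKM in at least 3 libraries, threshold 0.05). Each member also had exact two-sided permutation tests over samples. Correlations used 100000 permutations. Limma steps were tested on simulated reads, drawn for all libraries from a shared mean profile with a fixed spread. The simulation held no differences in tissue content, lean toward long genes or FPKM divisor, so it cannot show how the steps behave under those. Library pairs were checked for duplicates: chi-square divided by its degrees of freedom was at least 71.0.

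The labels number the replicates. Same-numbered libraries of SF_HPD and SC_ConD deviated together from their group means (correlations 0.711, 0.333 and 0.191 across genes). The labels name individual mice and give no source for a pairing. The tests given for these groups are therefore unpaired, and the replicate number entered an alternative fit as a block. No other 2 groups had every correlation over 0.1.

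The members, lists and rules were chosen with earlier results of these data known. Named genes were the members, up to 3 genes of each list and comparison with the smallest unadjusted p below 0.05, and the 3 genes most correlated with each member tested, without unnamed gene models, pseudogenes and receptor segments; some genes that this rule names are not reported here. C5ar1 and Fbn1 were named after their values were seen. The closing section gives the alternatives and their effect.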

Additional observations from a re-analysis of the deposited data

Results flagged for a closer look

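Adipoq stood apart in 1 library: its log2(FPKM + 1) was 4.76 in SF_HPD 2, far below the next value of the group, 9.40, with a gap of 0.733 of the group's range against a critical value of 0.71. The mean of the 20 adipocyte markers stood apart in the same library, at 3.0 against 7.13 (0.785 of the range). Such a gap was looked for in 14 sets of values of the groups of 5, and chance alone marks about 5% of sets.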

How the results depend on the processing

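Over 15 differences (5 genes in 3 comparisons), 345 values were computed under other settings: 332 kept their direction, 13 reversed and 0 passed the adjusted threshold. The Lep difference stayed below 0 between SF_ConD and SC_ConD under each setting (-3.62 to -1.97, adjusted p 0.411 to 1.0) and above 0 between SF_HPD and SF_ConD (0.56 to 2.63). Cfd between SF_ConD and SC_ConD reversed when rescaled to TPM (0.23), with median-of-ratios scaling (0.038), with the adipocyte marker mean as a covariate (0.29) and without the liver-rich libraries (1.23), and ran from -0.64 to 0.43 with single libraries left out. Without the liver-rich libraries Adipoq (0.082) and Retn (1.07) reversed too, but that setting leaves SC_ConD 1 as the only mouse of its group, assumed to vary like the others. With single libraries left out Retn ran from -2.35 to -0.15. Between SF_HPD and SF_ConD, leaving out SF_HPD 2 reversed Adipoq (0.25, or 0.18 with the adipocyte covariate added) and Nampt (0.041), with single libraries left out giving -1.33 to 0.25 and -0.283 to 0.041.

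Without SC_ConD 1, 194 genes passed between SF_ConD and SC_ConD (189 lower) and 196 between SF_HPD and SC_ConD (193 lower), none of them a member. That setting leaves the liver-rich SC_ConD 2 and 3 as the only mice of their group. The part of liver transcripts in these calls was not tested. Without SF_HPD 5, 1 gene passed in each SF_HPD comparison. Leaving out any other single library gave 0. The replicate block changed no call (Lep -2.58 between SF_ConD and SC_ConD). Rescaling to TPM moved the median of all genes from -0.03 to 0.16 in that comparison.

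The ratio settings, the adipocyte covariate without SF_HPD 2, the list counts without it and the leave-outs of the ratios were chosen after the data were seen. Lep as a percent of Adipoq reversed between SF_HPD and SC_ConD without SC_ConD 1 (1.72 percentage points), SF_HPD 2 (0.585) or SF_HPD 5 (0.442), from -0.0890, with a range of -1.06 to 1.72 over single libraries left out. Without the lymphoid-rich libraries the exact permutation p against SC_ConD in SF_ConD was 0.50 for Lep and 0.10 for Cfd relative to Adipoq, where 0.10 is the smallest possible, and without the liver-rich libraries it was 0.167 for both, the smallest that 5 mice against 1 allow. The cause of these changes was not tested. Both ratios still separated SF_ConD from SC_ConD without overlap when the lymphoid-rich libraries were left out. Depth limits Apln (1 to 81 reads) and Lep in SF_HPD 2.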
